A study of Arabidopsis thaliana with 6 samples.

Results

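The flavonoid regulators described here are 10 genes of Arabidopsis thaliana, chosen by name from 27655 genes in the expression table, and all 10 were found in it. They are the R2R3-MYB activators PAP1, PAP2 and MYB113, the bHLH proteins TT8, GL3 and EGL3, the WD40 protein TTG1, the flavonol activators MYB12 and MYB111, and the repressor MYBL2. RNA-seq compared 3 libraries of whole seedlings of a line labelled h3.3ko;HTR5 with 3 libraries of wild type Col seedlings. Seedlings of both genotypes were taken at an age of 10 days, after growth at 22 °C under a day of 16 h light and 8 h darkness. Its name combines an H3.3 knockout with HTR5, a gene for H3.3, the histone H3 variant that is placed on chromatin outside DNA replication. Its construction is not described in the sources used here, and neither are the alleles or the promoter involved. By its title, the study addresses an H3.3 residue found in plants, histone H3 lysine 36 methylation, and growth and stress responses.

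Flavonoids are phenolic pigments and sunscreens that include flavonols and anthocyanins. MYB12 and MYB111 act without a bHLH partner and switch on the early enzymes that lead to flavonols. The late anthocyanin enzymes are switched on by a complex in which PAP1 or a close relative joins a bHLH protein and TTG1, and MYBL2 and small R3-MYB proteins compete in that complex and lower its output. GL3, EGL3 and TTG1 also act in trichome and root hair patterning, with other MYB partners.

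The PAP genes are near copies, and how far their reads can be told apart bears on their values. The first 90 coding bases are printed for PAP1, PAP2, MYB113 and their neighbour MYB114, 5′ to 3′ on the coding strand, from the RefSeq TAIR10.1 genome. Capitals mark bases that differ from PAP1, of which there are 10 in PAP2, 14 in MYB113 and 9 in MYB114.
PAP1 (chr1:21235000-21235089, minus strand): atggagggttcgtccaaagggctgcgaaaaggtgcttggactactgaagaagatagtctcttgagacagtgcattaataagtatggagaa
PAP2 (chr1:24764052-24764141, plus strand): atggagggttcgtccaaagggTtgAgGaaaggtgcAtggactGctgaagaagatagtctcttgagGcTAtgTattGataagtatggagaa
MYB113 (chr1:24753634-24753723, plus strand): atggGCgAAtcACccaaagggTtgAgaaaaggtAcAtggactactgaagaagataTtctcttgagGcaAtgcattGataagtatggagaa
MYB114 (chr1:24757413-24757502, plus strand): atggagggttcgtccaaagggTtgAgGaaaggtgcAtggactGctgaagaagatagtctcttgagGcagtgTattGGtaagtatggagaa
Over the aligned coding sequences PAP1 was 84.3% identical to PAP2 and 79.3% identical to MYB113, and PAP2 was 91.4% identical to MYB114. GL3 and EGL3 were 81.1% identical, TT8 shared 64.6% with each of them, and MYB12 and MYB111 shared 66.9%. Of the windows of 50 exon bases in PAP2, 38 of 855 (4.44%) also stood elsewhere in the genome, and no window of the other 9 regulators did. Reads of PAP1 and MYB113 of that length could therefore be placed at 1 gene, whereas a small share of PAP2 reads could be placed in more than 1.

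The stretches before the annotated starts of the 3 regulators that passed the test as lower in h3.3ko;HTR5 are shown because 1 DNA element, the AC element bound by MYB proteins of this class, was found in each. Each line holds 250 bases, 5′ to 3′ towards the gene, from the same genome. Capitals mark the AC element, spelled ACCNANC, and the G-box, spelled CACGTG, each searched on both strands.
PAP1 (chr1:21235293-21235542, minus strand): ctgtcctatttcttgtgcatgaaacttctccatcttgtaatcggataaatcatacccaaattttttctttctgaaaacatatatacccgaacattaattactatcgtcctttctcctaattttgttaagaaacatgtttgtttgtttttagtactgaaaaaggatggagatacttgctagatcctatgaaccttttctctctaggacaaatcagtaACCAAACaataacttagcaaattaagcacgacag
TT8 (chr4:6181631-6181880, plus strand): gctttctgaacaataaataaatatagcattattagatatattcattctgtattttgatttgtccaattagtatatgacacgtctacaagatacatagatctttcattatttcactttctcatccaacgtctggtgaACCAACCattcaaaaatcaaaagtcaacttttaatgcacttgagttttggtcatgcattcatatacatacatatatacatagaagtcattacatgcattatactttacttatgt
MYB12 (chr2:19476076-19476325, plus strand): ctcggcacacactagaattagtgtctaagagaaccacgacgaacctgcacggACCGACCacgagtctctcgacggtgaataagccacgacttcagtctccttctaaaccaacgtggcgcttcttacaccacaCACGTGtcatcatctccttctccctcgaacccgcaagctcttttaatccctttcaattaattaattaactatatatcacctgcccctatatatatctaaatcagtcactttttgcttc
The AC element began 34 bases before the annotated start of PAP1, 114 before that of TT8 and 198 before that of MYB12, and the G-box of MYB12 began 118 bases before its start. Of the 10 regulators 5 held an AC element, the other two being PAP2 and MYBL2, against 27.8% of 27439 promoters of the same length. A G-box stood before 2 of 10, PAP2 and MYB12, against 6.49% of all promoters. The looser E-box, CANNTG, which includes every G-box, stood before 7 of 10, against 55.3%. Among enzyme genes the AC element was found before 4 of 8 early and 9 of 11 late ones. These matches describe letters and do not show binding.

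Of the 7 regulators expressed highly enough to be tested, 3 fell in h3.3ko;HTR5 and none rose: PAP1, TT8 and MYB12. The remaining 4, GL3, EGL3, TTG1 and MYBL2, did not pass the test, and their fold changes lay within 0.10 of 0 on the log2 scale. By comparison 8.32% of all 19013 tested genes were lower, 3.7% were higher and 12.0% changed in either direction (limma on log2(TPM + 1), genes averaging 1 TPM or more, Benjamini-Hochberg adjusted p under 0.05). The median log2 fold change was -0.10 for the 7 regulators and -0.03 for all tested genes. TPM is the read number of a gene scaled by its length and the library's total. Limma log2 fold changes are differences of log2(TPM + 1) unless stated. For genes at a few TPM they are smaller in size than the fold between mean TPM. PAP2 and MYB111 lay under the filter on low values and are given by their values, and MYB113 had no read. Of the 9 with any read, 5 had every h3.3ko;HTR5 library below every Col library, against 18.3% of the 23139 genes with any read. Of the 7 tested, 3 did, PAP1, TT8 and MYB12, against 20.4% of the tested genes. With no filter on low values, PAP2 and MYB111 also passed, giving 5 of 9 lower, where 6.13% of all genes were lower, 2.47% higher and 8.6% called. With voom on recovered reads 3 of 9 were lower, against 9.34% of all genes lower, 4.7% higher and 14% called. With exon-length TPM 3 of 8 were lower, against 8.89% lower, 4.14% higher and 13% called.

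**Figure D1:**
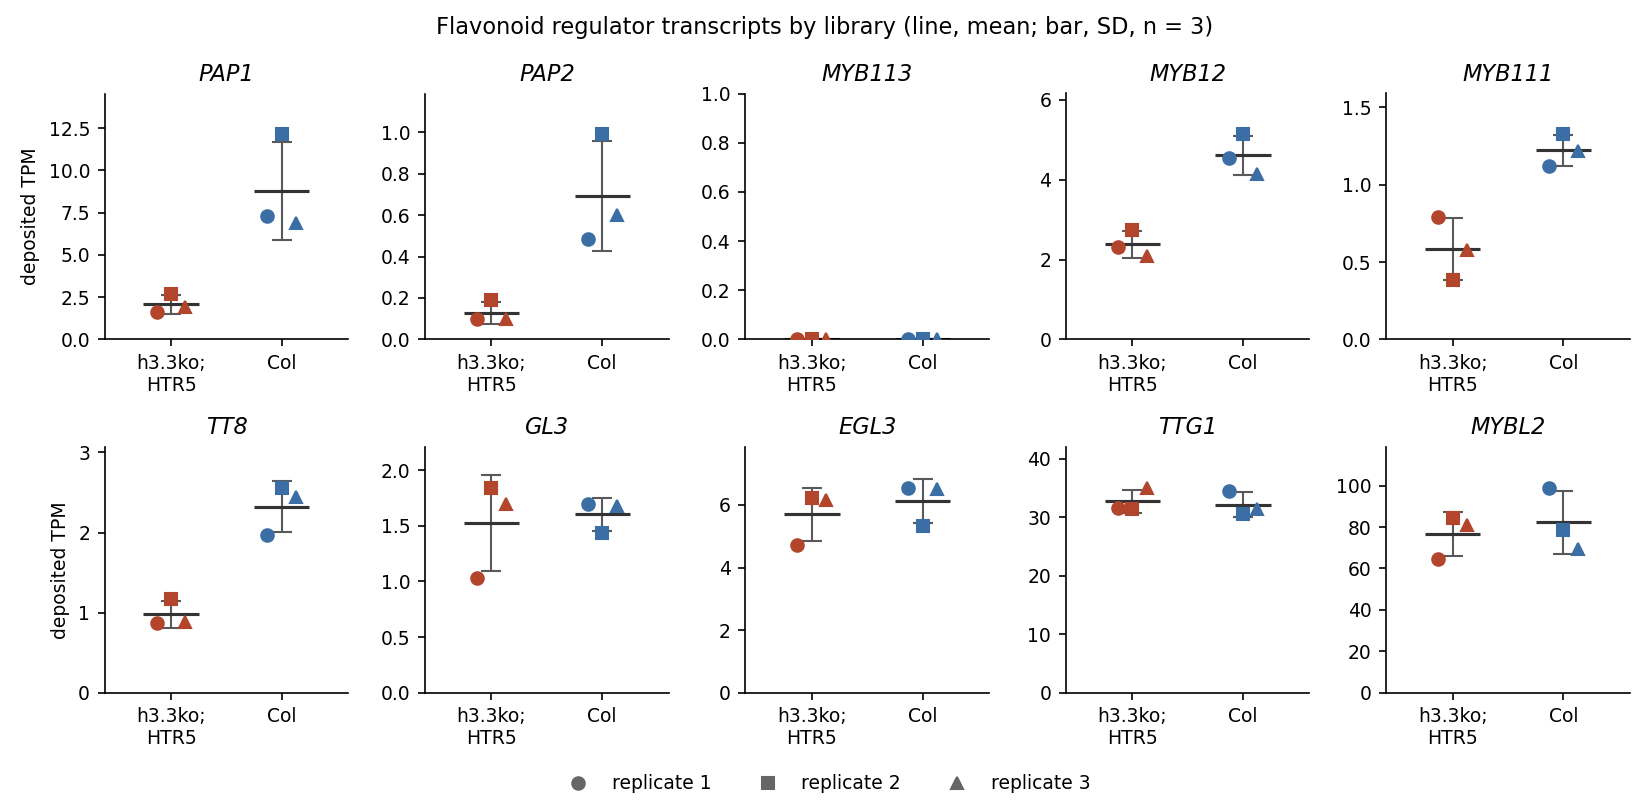
Deposited TPM of the 10 regulators in each library, h3.3ko;HTR5 left and Col right in every panel. The line is the mean and the bar the SD of 3 libraries. PAP1, PAP2, TT8, MYB12 and MYB111 show no overlap between the genotypes, GL3, EGL3, TTG1 and MYBL2 overlap, and MYB113 is at 0 throughout.

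The 6 libraries held 13792031 to 14498093 recovered reads, and 18812 to 19104 genes reached 1 TPM. Separate cultures are not stated for the replicates, so p-values measure no more than the spread of these samples, which may be technical. As a check of the labels, the H3.3 gene HTR8 had 3.19, 5.2 and 5.03 TPM in h3.3ko;HTR5, against 315, 323 and 289 TPM in Col. HTR4 and HTR5 were also lower, by log2 fold changes of -1.08 and -0.48, but stayed expressed. HTR4 averaged 151 TPM in h3.3ko;HTR5 and 321 TPM in Col, and HTR5 averaged 295 TPM in h3.3ko;HTR5 and 412 TPM in Col. Replicate 1 of h3.3ko;HTR5 stood apart in its chloroplast transcripts, at 0.316% of TPM, against 0.0991% to 0.117% in each of the other 5 libraries. Mitochondrial transcripts took 0.0305%, 0.0154% and 0.0162% of TPM in h3.3ko;HTR5 and 0.0121%, 0.0104% and 0.0121% in Col, with no overlap. The summed level of 3 shoot markers was 37886 to 39487 TPM in h3.3ko;HTR5 and 35380 to 37742 TPM in Col. That of 3 root markers was 1719 to 1898 TPM in h3.3ko;HTR5 and 1939 to 1961 TPM in Col, nearly all of it PYK10. The other root markers overlapped between the genotypes, with COBL9 averaging 5.01 TPM in h3.3ko;HTR5 and 5.81 TPM in Col. EXPA7 averaged 8.79 TPM in the line and 7.60 TPM in Col. None of these 6 markers passed the test, but with voom on recovered reads the shoot marker RBCS1A was higher and the root marker PYK10 lower (log2 fold changes 0.11 and -0.12, adjusted p = 0.00383 and 0.0128). RBCS1A also passed with the robust prior (limma, adjusted p = 0.0320), and PYK10 without replicate 2 of the line (limma, adjusted p = 0.0197). Of 4 flower and seed markers, whose sum was 1.41 to 5.09 TPM in h3.3ko;HTR5 and 0.528 to 1.41 TPM in Col, AP3 was at 0 in all libraries of the line and the seed storage gene CRA1 was higher (3.33, 1.23 and 4.68 TPM against 0.737, 0.830 and 0.381 TPM in Col, limma, adjusted p = 0.0292). The CRA1 call was lost when any single library but replicate 2 of the line was left out (adjusted p up to 0.111). The part of these markers and organelle shares in the results was not tested.

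PAP1 (AT1G56650, chr1:21233555-21235292, minus strand), the main MYB activator of anthocyanin synthesis in seedlings, had 1.61, 2.70 and 1.91 TPM in h3.3ko;HTR5 replicates 1 to 3, against 7.29, 12.1 and 6.89 TPM in Col replicates 1 to 3. Every library of the line lay far below every Col library, and replicate 2 was the highest within each genotype. The means were 2.07 ± 0.57 TPM in h3.3ko;HTR5 and 8.77 ± 2.91 TPM in Col (SD, n = 3 each), a 4.23-fold lower level. The log2 fold change of TPM + 1 was -1.64 ± 0.21 (SE, 95% confidence interval -2.1 to -1.19, limma, adjusted p = 9.43e-04). The values rest on 18, 31 and 21 reads in h3.3ko;HTR5 and 82, 133 and 75 reads in Col. In whole seedlings, fewer cells that express a gene and less RNA per cell cannot be told apart, for PAP1 and for every other gene.

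PAP2 (AT1G66390, chr1:24763941-24765541, plus strand), also called MYB90, is a paralogue of PAP1 that activates the same pathway when overexpressed. It had 0.0969, 0.189 and 0.0990 TPM in h3.3ko;HTR5, against 0.483, 0.990 and 0.599 TPM in Col. As for PAP1, replicate 2 was the highest of each genotype, and the genotypes did not overlap. This amounts to 4 reads in h3.3ko;HTR5 and 21 reads in Col over all libraries, a depth-adjusted ratio of 0.188 with an exact 95% interval of 0.0470 to 0.558 that covers counting error only. The gene lay under the filter, and the fits that took it in fell on either side of the threshold. Limma with no filter gave an adjusted p of 0.0295, and voom on recovered reads gave a log2 fold change of -2.03 ± 0.69 with an adjusted p of 0.0535.

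MYB113 (AT1G66370, chr1:24753589-24754761, plus strand), another paralogue in the same cluster as PAP2, had 0 reads in all 6 libraries. Taking 3 reads as the limit that a count of 0 allows, its level lay under 0.388 to 0.409 TPM, so no difference was detectable at this depth. MYB114, which lies between MYB113 and PAP2, also had 0 reads in all 6 libraries, as had TT2, the MYB partner of TT8 in the seed coat.

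TT8 (AT4G09820, chr4:6181881-6186523, plus strand) encodes the bHLH protein best known for pigment of the seed coat, and also takes part in anthocyanin synthesis in seedlings. It had 0.869, 1.18 and 0.887 TPM in h3.3ko;HTR5, against 1.96, 2.56 and 2.44 TPM in Col, with no overlap and again the highest value of each genotype in replicate 2. The mean was 0.977 ± 0.172 TPM in h3.3ko;HTR5 and 2.32 ± 0.315 TPM in Col (SD, n = 3 each), a 2.38-fold lower level. The log2 fold change of TPM + 1 was -0.75 ± 0.17 (SE, 95% confidence interval -1.12 to -0.38, limma, adjusted p = 0.0165). The call did not hold in 3 of the 6 fits that left out 1 library. The limma adjusted p was 0.0687 without Col replicate 2, 0.0563 without Col replicate 3 and 0.0593 without h3.3ko;HTR5 replicate 3. With voom on the recovered reads, 26, 36 and 26 in h3.3ko;HTR5 and 59, 75 and 71 in Col, the log2 fold change was -1.23 ± 0.23 and the adjusted p 7.02e-04.

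GL3 (AT5G41315, chr5:16529090-16533287, plus strand), a bHLH protein of trichome and anthocyanin complexes, had 1.03, 1.84 and 1.70 TPM in h3.3ko;HTR5, against 1.69, 1.43 and 1.67 TPM in Col. Replicate 1 of h3.3ko;HTR5 was the lowest of all 6 libraries and the genotypes overlapped. The log2 fold change was -0.06 ± 0.18, with a 95% confidence interval of -0.46 to 0.35 (limma, adjusted p = 0.883). GL3 overlaps AT5G06145, and without a stated strand setting reads of the overlap cannot be told apart. EGL3 (AT1G63650, chr1:23599413-23603164, plus strand), which shares its functions with GL3, had 4.71, 6.22 and 6.17 TPM in h3.3ko;HTR5, against 6.55, 5.32 and 6.52 TPM in Col. Here too h3.3ko;HTR5 replicate 1 was the lowest and the genotypes overlapped. Its log2 fold change was -0.09 ± 0.13, with a 95% confidence interval of -0.39 to 0.20 (limma, adjusted p = 0.711). The signs of both genes turned when that replicate was left out, to 0.09 for GL3 and 0.02 for EGL3.

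TTG1 (AT5G24520, chr5:8370317-8372847, minus strand), the WD40 scaffold of the complex, had the smallest standard error of the 7 tested regulators, with 31.6, 31.5 and 35.1 TPM in h3.3ko;HTR5, against 34.5, 30.5 and 31.5 TPM in Col. The genotypes overlapped, and the log2 fold change of 0.02 ± 0.07 had a 95% confidence interval of -0.13 to 0.18 (limma, adjusted p = 0.876), an interval that does not reach the estimates of PAP1, TT8 or MYB12. MYBL2 (AT1G71030, chr1:26795052-26796532, minus strand), the single-repeat MYB repressor, was the most abundant of the 10, with 64.4, 84.2 and 80.9 TPM in h3.3ko;HTR5, against 99.0, 78.6 and 69.2 TPM in Col. Replicate 1 was the highest library of Col and the lowest of h3.3ko;HTR5, and the genotypes overlapped. The log2 fold change was -0.10 ± 0.13, with a 95% confidence interval of -0.38 to 0.19 (limma, adjusted p = 0.690).

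MYB12 (AT2G47460, chr2:19476326-19479597, plus strand), a flavonol activator that acts mainly in roots, had 2.32, 2.73 and 2.08 TPM in h3.3ko;HTR5, against 4.54, 5.13 and 4.15 TPM in Col. The genotypes did not overlap, and the highest library of the line stayed well under the lowest Col library. Mean levels were 2.38 ± 0.329 TPM in h3.3ko;HTR5 and 4.61 ± 0.494 TPM in Col (SD, n = 3 each), a 1.94-fold lower level. The log2 fold change of TPM + 1 was -0.73 ± 0.14 (SE, 95% confidence interval -1.04 to -0.43, limma, adjusted p = 0.00759). MYB111 (AT5G49330, chr5:19998823-20001572, minus strand), which acts mainly in cotyledons, had 0.790, 0.386 and 0.576 TPM in h3.3ko;HTR5, against 1.12, 1.32 and 1.22 TPM in Col. It was the only one of the 5 separated regulators whose highest value in the line was in replicate 1, and the genotypes did not overlap. Its 31 reads in h3.3ko;HTR5 and 64 reads in Col give a depth-adjusted ratio of 0.479, with an exact 95% interval of 0.301 to 0.746 for counting error only. With a mean of 0.904 TPM it lay just under the filter. Limma with no filter gave an adjusted p of 0.0452, limma on exon-length TPM 0.0708 and voom 0.0589.

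**Figure D2:**
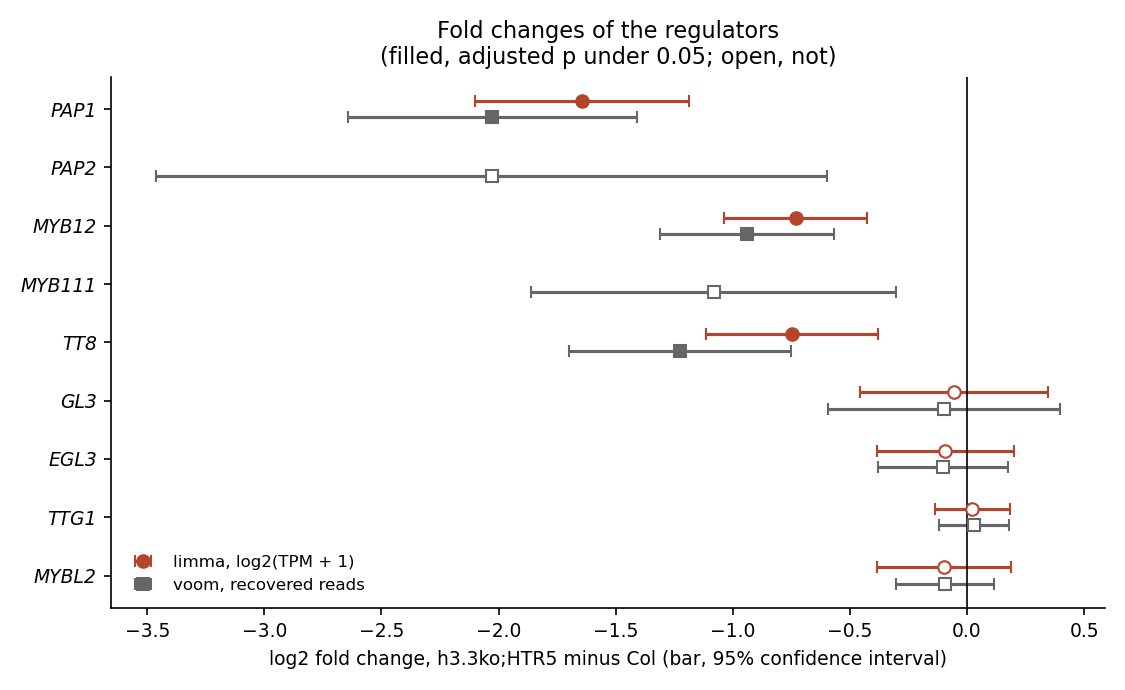
Log2 fold changes, h3.3ko;HTR5 minus Col, of the 9 regulators with reads, from limma on log2(TPM + 1) (circles, 7 tested genes) and from voom on recovered reads (squares), with 95% confidence intervals. Filled symbols have an adjusted p under 0.05. PAP1, TT8 and MYB12 are filled in both fits, PAP2 and MYB111 are low with open symbols, and the intervals of GL3, EGL3, TTG1 and MYBL2 include 0.

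The levels of different genes were compared as TPM recomputed with exon length. In h3.3ko;HTR5 the order of mean levels was MYBL2 (62.0), TTG1 (33.6), EGL3 (6.24), MYB12 (3.75), PAP1 (2.48), GL3 (1.81), TT8 (1.73), MYB111 (0.752) and PAP2 (0.157). In Col it was MYBL2 (66.4), TTG1 (33.0), PAP1 (10.5), MYB12 (7.24), EGL3 (6.69), TT8 (4.09), GL3 (1.89), MYB111 (1.57) and PAP2 (0.839). Neighbours whose ranges over the libraries overlapped were PAP1 with GL3 and GL3 with TT8 in h3.3ko;HTR5, and MYB12 with EGL3 and GL3 with MYB111 in Col. Within each library of the line PAP1 stood above GL3 (1.93, 3.23 and 2.29 against 1.23, 2.18 and 2.02). The order of the other pairs differed between libraries and is not settled. PAP1 stood above EGL3 in every Col library and below it in every h3.3ko;HTR5 library.

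Ratios within a library, chosen after the values were seen and given without a test, describe the same shift. PAP1 stood at 0.0368, 0.0474 and 0.0349 of the MYBL2 level in h3.3ko;HTR5, against 0.109, 0.228 and 0.147 in Col. The ratio of PAP1 to MYBL2 transcripts was thus lower in every library of the line, while MYBL2 itself overlapped between the genotypes. Among the bHLH transcripts TT8 made up 19.4%, 18.8% and 15.2% in h3.3ko;HTR5, against 27.4%, 37.6% and 32.1% in Col, and EGL3 made up 65.1%, 61.5% and 65.3% in h3.3ko;HTR5, against 56.7%, 48.3% and 53.1% in Col. EGL3 was thus the largest of the 3 bHLH transcripts in all 6 libraries, by a wider margin in h3.3ko;HTR5.

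**Figure D3:**
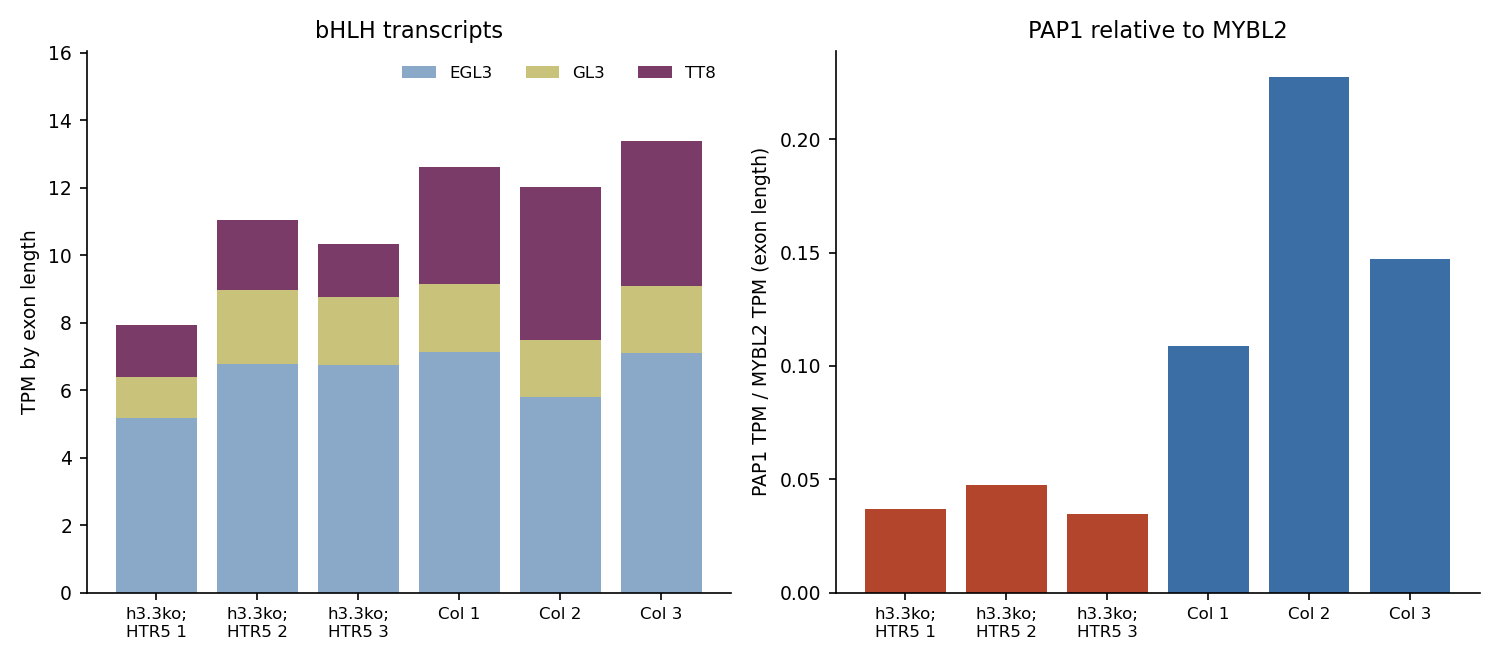
Left, exon-length TPM of EGL3, GL3 and TT8 stacked for each library, and right, the ratio of PAP1 to MYBL2 in exon-length TPM, h3.3ko;HTR5 libraries before Col libraries. The TT8 band is 15.2% to 19.4% of the stack in h3.3ko;HTR5 and 27.4% to 37.6% in Col, and the PAP1 ratio is 0.0349 to 0.0474 in the line and 0.109 to 0.228 in Col.

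For the 5 regulators whose genotypes did not overlap, the highest library of each genotype was counted. Within h3.3ko;HTR5, 4 of 5 were highest in replicate 2, as were 42.6% of all tested genes, and within Col, 5 of 5 were highest in replicate 2, as were 24.0% of all tested genes. Of the 16 enzyme genes that were lower, 13 were highest in replicate 2 of the line and 9 in Col replicate 2. This is a description of 3 libraries per genotype, with no test.

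The enzymes these regulators are known to switch on were lower as well. All 8 early and flavonol genes fell in h3.3ko;HTR5, with a median log2 fold change of -0.70. Of the late anthocyanin genes 8 of 11 fell, with a median of -0.50, and none of the 19 rose. Of all tested genes 8.32% were lower and 3.7% were higher. Of the late calls, that of the acyltransferase-like gene SCPL10, was lost in every fit that left out 1 library, and UGT79B1, a glycosyltransferase gene, lost its call without replicate 3 of the line or Col replicate 2. The lists were chosen with earlier results of these data known. Among the early genes, FLS1, the flavonol synthase, had 66.1, 78.7 and 64.0 TPM in h3.3ko;HTR5, against 121, 122 and 124 TPM in Col (log2 fold change -0.81 ± 0.07, limma, adjusted p = 1.62e-04). CHS, which starts the pathway, had 428, 512 and 423 TPM in h3.3ko;HTR5, against 794, 799 and 753 TPM in Col (log2 fold change -0.79 ± 0.07, limma, adjusted p = 1.35e-04). In both genes the Col libraries lay close together and all libraries of the line lay below them, as they did for CHI, chalcone isomerase, whose log2 fold change was -0.72 ± 0.11.

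The late genes with the largest changes were TT19, 5MAT and LDOX. TT19, a glutathione transferase needed to bring anthocyanins to the vacuole, had 12.3, 11.8 and 9.16 TPM in h3.3ko;HTR5, against 28.3, 28.6 and 24.7 TPM in Col (log2 fold change -1.23 ± 0.11, limma, adjusted p = 1.63e-04). 5MAT, which adds malonyl groups to anthocyanins, had 4.54, 5.75 and 5.10 TPM in h3.3ko;HTR5, against 12.0, 14 and 10.3 TPM in Col, and LDOX, anthocyanidin synthase, had 28.7, 35.0 and 23.1 TPM in the line, against 56.4, 67.6 and 58.7 TPM in Col. Their log2 fold changes were -1.09 ± 0.13 and -1.06 ± 0.13, and the genotypes overlapped for none of the 3 genes. The log2 fold change of PAP1, -1.64, was larger in size than the estimate of any of these 19 genes, and those of TT8 and MYB12 were -0.75 and -0.73. The scale lowers these values for genes at a few TPM, and with a pseudocount of 0.1 the log2 fold changes were -1.17 for TT8 and -0.93 for MYB12, against -0.82 for FLS1 and -0.79 for CHS. Differences between these estimates were not tested. Of these 19 genes, the early genes CHS, F3H and UGT89C1 and the late genes UGT75C1, TT19, 3AT1 and SCPL10 overlap other annotated genes. The coumaroyl transferases 3AT1 and 3AT2 and the glucosyltransferase gene BGLU10 were the late genes that did not pass. Their log2 fold changes were 0.25, 0.14 and -0.24. None of the 4 genes of the proanthocyanidin branch reached the filter. The most abundant, the proton pump gene AHA10, had 0.352, 0.814 and 0.851 TPM in h3.3ko;HTR5, against 1.21, 0.916 and 0.759 TPM in Col, and the genotypes overlapped. TT10, a laccase of the seed coat named after its values were seen, had nearly the same mean over all libraries, with 0.454, 0.754 and 0.649 TPM in the line, against 0.995, 1.11 and 0.935 TPM in Col, and no overlap.

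**Figure D4:**
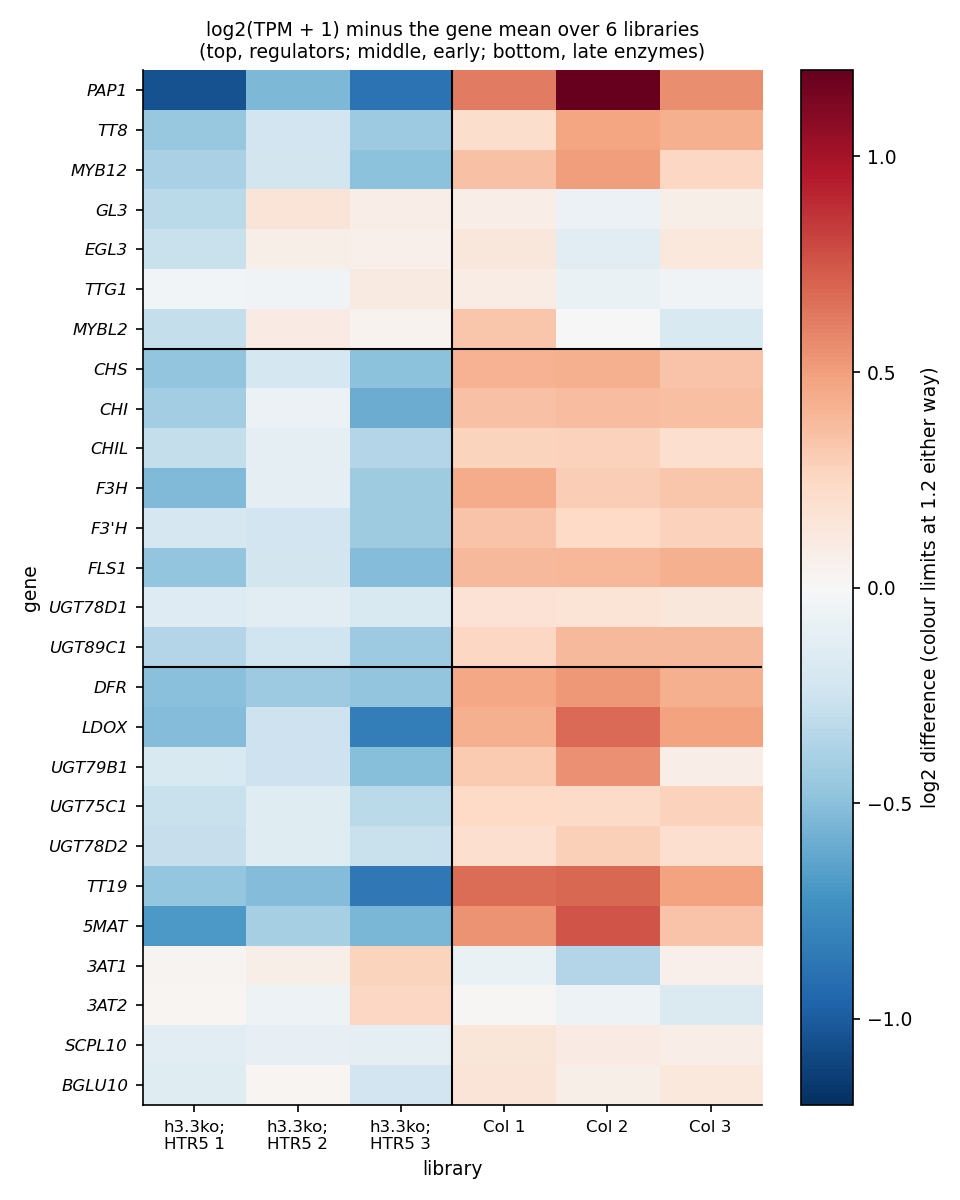
Log2(TPM + 1) of each library minus the gene's mean over the 6 libraries, h3.3ko;HTR5 columns left and Col columns right, for the 7 tested regulators (top), 8 early (middle) and 11 late (bottom) genes. Blue is below and red above the mean, and the colours stop at the limits of the bar. PAP1, TT8, MYB12 and the 16 lower enzyme genes are blue in the left columns and red or pale red in the right ones, unlike GL3, EGL3, TTG1, MYBL2, 3AT1 and 3AT2.

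Of the other MYB and bHLH genes of the same complexes and of phenolic synthesis, 4 of 8 tested were lower and none was higher. The shares of all tested genes were 8.32% lower and 3.7% higher. The list's log2 fold changes ran from -0.80 to -0.12, with a median of -0.38. GL1, the trichome MYB that binds GL3, had 0.853, 0.834 and 0.959 TPM in h3.3ko;HTR5, against 2.89, 2.0 and 2.02 TPM in Col, with no overlap. Its log2 fold change of TPM + 1 was -0.80 ± 0.17 (limma, adjusted p = 0.0143). MYB4 and MYB7, which repress phenylpropanoid genes, had log2 fold changes of -0.59 ± 0.07 and -0.61 ± 0.15 (limma, adjusted p = 5.61e-04 and 0.0252). The MYB7 call was lost under 5 of 16 alternatives, including those without replicate 2 or 3 of h3.3ko;HTR5 or Col replicate 3, with a limma adjusted p of at most 0.0955. Activators and repressors were thus both among the genes that fell.

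Among the R3-MYB inhibitors, small proteins that bind GL3, EGL3 or TT8 in place of an R2R3-MYB, 3 of 5 tested genes fell. By comparison 8.32% of all tested genes were lower. The list's median was -0.55 on the log2 scale. CPC and ETC1, named like TCL1 after their values were seen, did not pass (log2 fold changes 0.18 and -0.45). TCL1 lay under the filter, with 5 reads in h3.3ko;HTR5, 31 reads in Col and no overlap. ETC2 averaged 2.04 ± 0.333 TPM in h3.3ko;HTR5 and 3.84 ± 1.0 TPM in Col, ETC3 averaged 3.38 ± 1.04 TPM in the line and 5.67 ± 0.256 TPM in Col, and TRY averaged 4.21 ± 0.459 TPM in the line and 6.69 ± 1.56 TPM in Col (SD, n = 3 each). Their limma adjusted p-values of 0.0417, 0.0402 and 0.0448 lay near the threshold. The calls were lost under 11, 11 and 10 of 16 alternatives, with adjusted p-values up to 0.145, 0.117 and 0.152. All 3 calls were lost without replicate 1 or 3 of h3.3ko;HTR5 or replicate 2 or 3 of Col, those of ETC2 and TRY also without replicate 2 of the line, and that of ETC3 also without Col replicate 1. All 3 were also lost with quantile normalization and with median-of-ratios scaling. Of the 3 genes that act downstream of the complex in the epidermis none passed, and the most abundant, the homeobox gene ANL2, had 32.9, 32.3 and 31.1 TPM in h3.3ko;HTR5, against 34.4, 29.8 and 31.5 TPM in Col, with overlapping genotypes. TTG2, a WRKY gene named after its values were seen, had 5.68, 5.48 and 3.57 TPM in the line, against 6.48, 6.92 and 7.33 TPM in Col, without overlap (log2 fold change -0.44, 95% confidence interval -0.78 to -0.10, limma, adjusted p = 0.0908).

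Regulators upstream of the MYB and bHLH genes, which act through light, nitrogen, jasmonate or developmental phase, showed 1 higher and 5 lower of 17 tested genes. Over all tested genes 3.7% were higher and 8.32% lower. The list's median log2 fold change was -0.05. JAZ1, a jasmonate repressor that binds these MYB and bHLH proteins, had 25.9, 27.2 and 24.3 TPM in h3.3ko;HTR5, against 48.3, 37.8 and 37.5 TPM in Col (log2 fold change -0.65 ± 0.10, limma, adjusted p = 0.00236). SPL9, which hinders the PAP1 complex, had a log2 fold change of -0.50 ± 0.13, and the light regulator BBX22 one of -0.34 ± 0.09 (limma, adjusted p = 0.0339 and 0.0291). HY5, LBD37 and PIF4, named after their values were seen, had log2 fold changes of -0.32, -0.18 and 0.21 (limma, adjusted p = 0.0185, 0.0482 and 0.0357). The JAZ1 call held in every fit that left out 1 library. The calls of SPL9 and PIF4 were lost without any single library except replicate 1 of the line (limma, adjusted p up to 0.121 and 0.145) and that of LBD37 without any single library (up to 0.155). With quantile normalization and median-of-ratios scaling SPL9 (limma, adjusted p = 0.0559 and 0.0502) and LBD37 (limma, adjusted p = 0.122 and 0.0925) also missed the threshold. Among the fits without 1 library, BBX22 kept its call only without replicate 2 of the line or Col replicate 3 (up to 0.0988), and HY5 lost it without replicate 2 or 3 of the line (up to 0.0591). Of 4 F-box genes that direct the breakdown of pathway enzymes, KFBCHS, whose protein targets chalcone synthase, was higher, with 325, 458 and 427 TPM in h3.3ko;HTR5, against 313, 265 and 274 TPM in Col (log2 fold change 0.49 ± 0.11, limma, adjusted p = 0.0184). That call was lost under 6 of 16 alternatives, among them those without replicate 2 or 3 of either genotype (limma, adjusted p up to 0.0939).

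**Figure D5:**
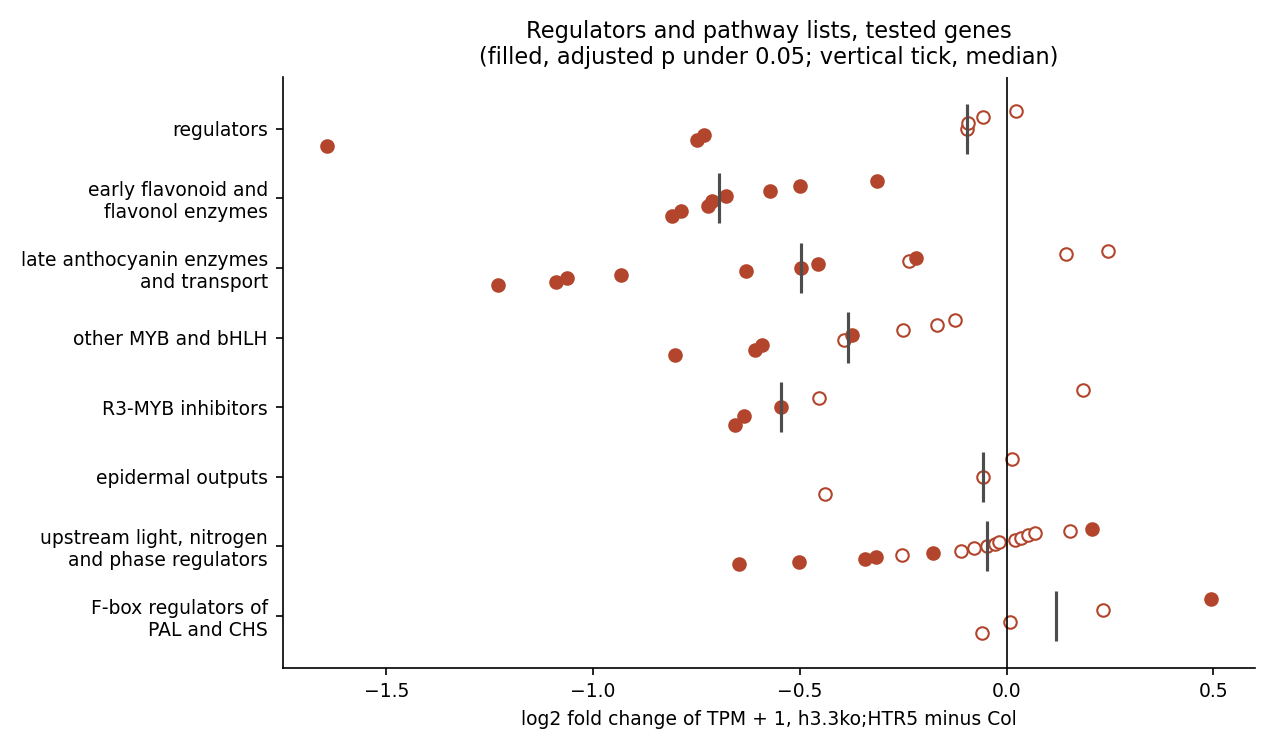
Log2 fold changes of TPM + 1, h3.3ko;HTR5 minus Col, of the tested genes in each list. Each point is a gene, filled where the limma adjusted p is under 0.05, and the vertical tick is the list's median. The median is -0.70 for the early and -0.50 for the late genes, -0.10 for the regulators and 0.12 for the F-box genes.

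The genes whose pattern over the 6 libraries lay closest to PAP1, by Euclidean distance between log2(TPM + 1) values centred on each gene's mean, were AT5G64120 (0.441), the sulfur-deficiency gene ATSDI1 (0.493), AT2G25510 (0.530), AT1G76960 (0.566) and ERF15 (0.614), against a median distance of 2.1 over all tested genes. For TT8 they were AT4G08570 (0.117), AT5G38020 (0.143), UGT89C1 (0.148), KAT5 (0.154) and FUR1 (0.175), against a median of 0.955. UGT89C1, a flavonol rhamnosyltransferase, is on the early list, and none of the other 9 is on any list used here. Since this distance follows the difference between genotypes, all 10 genes were lower in h3.3ko;HTR5, though FUR1 lost its call without replicate 1 or 3 of the line or replicate 2 or 3 of Col (limma, adjusted p up to 0.0856).

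The genes next to the regulators on the chromosome are given as context for their positions. Of 19 neighbours 14 were tested, of which 3 were lower and 1 was higher, against 8.32% and 3.7% of all tested genes. AT1G56660, 2546 bases from PAP1, averaged 9.33 TPM in h3.3ko;HTR5 and 17.7 TPM in Col (log2 fold change -0.85). CML23, a calmodulin-like gene 4877 bases from PAP2, averaged 14.6 TPM in h3.3ko;HTR5 and 33.6 TPM in Col. Its log2 fold change was -1.17 (limma, adjusted p = 0.00575). Of 16 alternatives, the robust prior alone lost the CML23 call (limma, adjusted p = 0.0571). AT1G63660 beside EGL3, which itself did not pass, had a log2 fold change of -0.27 and lost its call without replicate 1 or 2 of the line or Col replicate 2 (limma, adjusted p up to 0.0663). CAO, chlorophyllide a oxygenase, lies beside MYB12 and was higher, with a mean of 459 TPM in h3.3ko;HTR5 and 369 TPM in Col (log2 fold change 0.31). Neither neighbour of TT8 passed.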

How the data were processed

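The data are 6 RNA-seq libraries from whole Arabidopsis seedlings. The TAIR10 build is named in the submitters' processing notes, together with DESeq2 1.26.0, fastp 0.20.1 and HISAT2 2.1.10. Neither the counting tool nor the strand setting is given in the sources used here. Deposited by the authors were TPM values for 27655 genes, of which 27445 (99.2%) matched the TAIR10.1 annotation. With each gene's full span, introns included, as its length, the reads of 22980 of 22985 expressed genes were whole numbers in every library (tolerance 0.02 reads). The deposited TPM of genes with long introns is therefore lowered, and levels between genes were compared with exon lengths.

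Genotypes were compared with limma 3.58.1 (R 4.3.3) on log2(TPM + 1), a scale that understates changes of low genes, over genes averaging 1 TPM or more, with a trend in the variance prior, two-sided, and Benjamini-Hochberg adjustment over all 19013. Means are ± SD of 3 libraries. The main fit alone was tested on simulated data, with changes placed only in genes of higher mean TPM than TT8. Neither the alternatives nor changes in genes as low as TT8 were covered. Alternatives were a pseudocount of 0.1, no filter, quantile and median-of-ratios scaling, no trend, a robust prior, voom on recovered reads, exon-length TPM, a replicate block and each library left out. A voom fit over genes with at least 10 reads in all was added after seeing the data, and the voom values printed come from it. Between replicates the chi-square per degree of freedom was 2.12 to 3.91, above counting noise. Intervals and floors on reads cover counting error only.

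Members, lists and rules were chosen with earlier results of these data known. Named are the 10 regulators, the H3.3 genes, at most the 3 largest passing changes of each list, or its most abundant gene where none passed, and the 5 genes nearest to PAP1 and to TT8; others were named after their values were seen. Sequences and motif matches were read from TAIR10.1 with Biopython 1.88.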

Additional observations from a re-analysis of the deposited data

How the results depend on the processing

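PAP1 and MYB12 were lower with an adjusted p under 0.05 under all 16 alternatives, with log2 fold changes of -2.03 to -1.41 and -0.94 to -0.65. TT8 ranged from -1.23 to -0.65 and missed the threshold in 3 leave-one-out fits. With no filter 5 regulators passed in place of 3, PAP2 and MYB111 being added; leaving out 1 library gave 2 to 3. Of the regulators that did not pass, the sign turned for GL3 with quantile normalization (0.050), as for the shoot marker RBCS1A (-0.0090). It also turned when 1 library was left out, the log2 fold changes ranging from -0.15 to 0.092 for GL3 (positive without h3.3ko;HTR5 replicate 1), -0.18 to 0.018 for EGL3 (likewise), -0.026 to 0.073 for TTG1 (negative without h3.3ko;HTR5 replicate 3 or Col replicate 2), -0.21 to 0.043 for MYBL2 (positive without replicate 1 of either genotype) and -0.035 to 0.067 for ANL2 (negative without h3.3ko;HTR5 replicate 1 or Col replicate 2). The enzyme count of 16 stayed between 14 and 16: SCPL10 was lost under 8 alternatives and UGT79B1 under 2, and BGLU10 was gained without h3.3ko;HTR5 replicate 2. Over all genes 2285 passed; the number was 1443 with no trend and 1289 to 2084 with 1 library left out, the lowest without h3.3ko;HTR5 replicate 3, and 1469 without Col replicate 2. The higher share of calls was 30.8%, but 46.4% with quantile and 42.8% with median-of-ratios scaling, which moved the median of all genes from -0.03 to 0.01 and 0.002. Same-numbered libraries did not deviate together over all tested genes (correlations -0.0427, 0.0236 and -0.0122). These values cannot show whether such libraries were grown or handled together, which is not stated. With the replicate block 1851 genes, 3 regulators and 15 enzyme genes passed. The cause of each change was not tested. Read numbers limit PAP2, MYB111 and MYB113.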
